A study of Mus musculus with 34 samples.

Results

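The subunits of the oxidative phosphorylation machinery were followed through 34 expression arrays of mouse muscle and liver. Members were all genes whose annotated symbol named a nuclear-encoded subunit of complex I (Nduf genes of the a, b, c, s and v series), complex II (Sdha to Sdhd), complex III (Uqcr genes), complex IV (Cox4 to Cox8 genes) or complex V (Atp5 genes), taken from probe sets with a single symbol. The rule gave 78 of the 12394 genes on the array, read by 147 of its 22690 probe sets: 32 genes of complex I, 4 of complex II, 8 of complex III, 17 of complex IV and 17 of complex V. Ndufa4, named for complex I, was placed in complex IV, of which its protein is a subunit. Of the 78 genes, 35 had 1 probe set and 43 had several, and each gene was read by its brightest probe set over all arrays. The rule used symbols and brightness alone and no difference between groups.

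Oxidative phosphorylation takes electrons from NADH at complex I and from succinate at complex II, passes them through ubiquinone to complex III, and through cytochrome c to complex IV, which reduces oxygen. Complexes I, III and IV pump protons out of the mitochondrial matrix, and complex V, the ATP synthase, lets them back in to make ATP. Complex II and the genes studied here are encoded in the nucleus, and 3 small complex IV subunits exist in a form of heart and skeletal muscle (Cox6a2, Cox7a1, Cox8b) and a form of liver and most other tissues (Cox6a1, Cox7a2, Cox8a).

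The mice lacked muscle glycogen synthase (MGSKO), overexpressed glycogen synthase (the line labelled GSL30), or were wild type (WT), and the comparisons ask how subunit transcripts stand where muscle cannot make, or makes more of, glycogen. At 3 months, MGSKO and WT mice gave anterior tibialis (4 and 4 arrays), medial gastrocnemius (3 and 5 arrays) and liver (4 and 4 arrays). At 8 months, GSL30 and WT mice gave medial gastrocnemius (5 and 5 arrays). The labels name the strain C57BL6/129SV for tibialis and no strain for the other tissues, do not give the promoter of the GSL30 transgene, and call the knockout by the muscle glycogen synthase gene without naming the allele. They do not say that each array is a separate animal, so p-values measure only the spread between these samples, which may be technical. Each tissue and age carries its own run prefix in the sample titles, so run, tissue and age cannot be told apart between tissues or between ages, whereas each mutant and its WT group share a prefix.

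Gys1, the muscle glycogen synthase, followed the labels in muscle: its brighter probe set averaged 9271 in WT tibialis and lay between 34.2 and 72.5 in MGSKO tibialis, averaged 5033 and 96.7 in WT and MGSKO gastrocnemius at 3 months, and averaged 6285 in WT against 9115 in GSL30 gastrocnemius. In liver it lay at 56.8 in WT and 37.8 in MGSKO, so that tissue gives no such check. Liver transcripts were present in the 3-month gastrocnemius arrays: the median of 13 hepatocyte markers reached 31.6%, 66.1%, 9.96%, 50.2% and 3.87% of the WT liver level on WT arrays 1 to 5, and 18.7%, 5.54% and 4.02% on MGSKO arrays 1 to 3. The highest value was 2.47% in gastrocnemius at 8 months and 0.567% in tibialis. No hepatocyte marker was at 0 on any array. WT gastrocnemius array 2 at 3 months also stood apart from its group in fast fibre markers, with a mean log2 level of 17.23 against 15.13 to 15.64 on the other 4. Single values of hepatocyte markers reached 245380 in 3-month WT gastrocnemius, above the 83385 reached in WT liver. Those of slow fibre markers reached 91609 there, against at most 55867 in the other muscle groups. The lowest correlation between arrays of that group was 0.901, and in the other groups 0.951. The percentages above thus need not measure the share of liver RNA. Whether the bright subunit probe sets are affected was not tested. In whole tissue, fewer cells of a type and less RNA per cell cannot be told apart.

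Subunit transcripts were among the brightest on the array. On the deposited intensity scale, on which the mean of the central values of every array is about 1000, the median member lay at percentile 99.0 of all probe sets in WT tibialis, 98.4 in WT gastrocnemius at 3 months and 96.7 in WT liver. The complex medians in WT tibialis ran from percentile 98.6 (complex II) to 99.5 (complex V). In WT tibialis, 2 members lay under percentile 40, both of complex IV: Cox6b2, the testis form of subunit 6b, at 170 ± 67.3 (SD, n = 4), and the probe set annotated as Cox7c at 223 ± 44.2 (SD, n = 4). Differences below are on the scale of log2(intensity + 50), which understates changes of dim probe sets, and come from limma fits over all 13576 probe sets above a filter on dim signal, with Benjamini-Hochberg adjustment over all of them and a threshold of 0.05.

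The complex IV isoforms separated muscle from liver. Cox6a2, the muscle form of subunit 6a, read 40694, 39390, 36568 and 35131 on the 4 WT tibialis arrays and 386, 412, 246 and 345 on the 4 WT liver arrays, so that the mean was 109 times higher in tibialis. Cox7a1, the muscle form of subunit 7a, read 20337, 18884, 17934 and 17473 in WT tibialis and 138, 107, 92.8 and 104 in WT liver. Cox8b, the muscle form of subunit 8, read 42080, 44860, 36376 and 32718 in WT tibialis and 147, 178, 35.8 and 30.7 in WT liver. The liver levels of Cox7a1 and Cox8b were among the dimmest 40% of probe sets there, so no fold is given for them.

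The partner isoforms of subunits 6a and 8 went the other way and that of 7a did not. Cox6a1 read 8968, 9885, 9972 and 7295 in WT tibialis and 31613, 31255, 28145 and 29435 in WT liver, a log2 difference of 1.74 (SE 0.13, limma adjusted p = 6.51e-07). Cox8a read 4177, 4447, 3950 and 2421 in WT tibialis and 18587, 18360, 18667 and 20489 in WT liver, a log2 difference of 2.36 (SE 0.18, limma adjusted p = 9e-07). For both genes every liver array lay above every muscle array of WT mice. Cox7a2 was bright in both tissues, at 40026 ± 2616 (SD, n = 4) in WT tibialis and 28786 ± 2506 (SD, n = 4) in WT liver, a log2 difference of -0.48 (SE 0.11, limma adjusted p = 0.00356). The next brightest probe sets of Cox6a1 and Cox8a gave 2.61 and 2.25. Cox8b is also on the list of brown adipocyte markers, so its level is no check of that cell type.

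**Figure D1:**
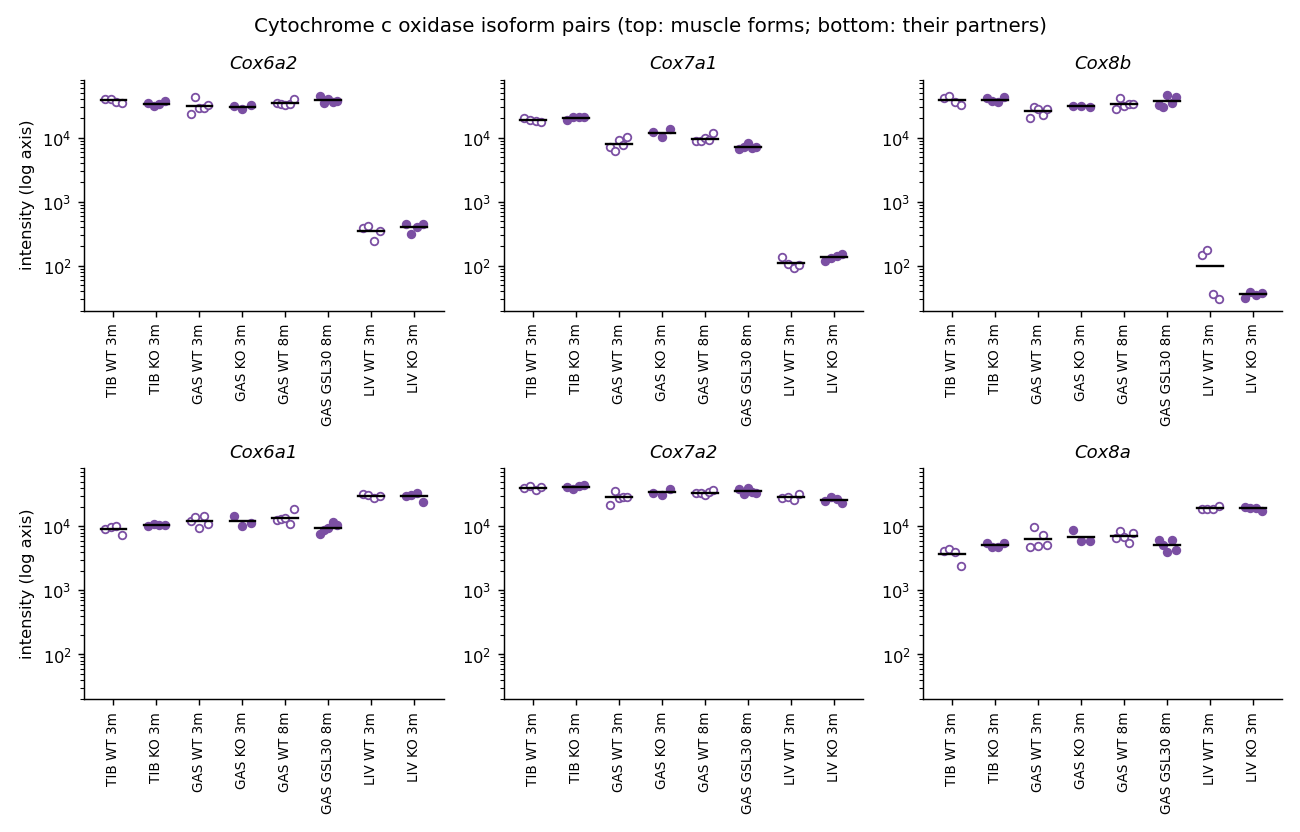
Intensity (log axis) of the muscle forms Cox6a2, Cox7a1 and Cox8b (top) and of Cox6a1, Cox7a2 and Cox8a (bottom) on each of the 34 arrays by group, with TIB anterior tibialis, GAS medial gastrocnemius, LIV liver, KO MGSKO, 3m and 8m the age in months, open points WT, filled points mutant and bars the group mean. The muscle forms drop in liver, Cox6a1 and Cox8a are highest there, and Cox7a1 is lower in gastrocnemius than in tibialis.

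The 250 bases before the annotated start of 4 of these genes are printed because the transcripts differ so widely between tissues (RefSeq, build GRCm38.p6, coding strand, 5′ to 3′). Capitals mark letters searched for on both strands: the 10-letter palindrome bound by NRF1 and its core CATGCGC, which lies within it, CGGAAG, bound by GABP and other ETS factors, and CCGGAAGT, which overlaps it, CAGCTG, an E-box bound by MyoD, and TATAAA, the TATA box.
Cox7a1 (chr7:30183921-30184170, plus strand): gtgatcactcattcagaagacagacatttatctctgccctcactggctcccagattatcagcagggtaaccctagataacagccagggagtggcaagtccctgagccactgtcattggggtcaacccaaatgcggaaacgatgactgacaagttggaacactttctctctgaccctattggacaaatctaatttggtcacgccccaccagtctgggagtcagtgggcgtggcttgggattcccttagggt
Cox8b (chr7:140900447-140900696, minus strand): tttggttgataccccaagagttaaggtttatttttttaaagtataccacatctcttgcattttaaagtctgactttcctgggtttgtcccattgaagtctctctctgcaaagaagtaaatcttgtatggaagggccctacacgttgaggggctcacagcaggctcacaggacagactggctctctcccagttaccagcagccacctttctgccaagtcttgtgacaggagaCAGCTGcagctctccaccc
Cox6a1 (chr5:115348959-115349208, minus strand): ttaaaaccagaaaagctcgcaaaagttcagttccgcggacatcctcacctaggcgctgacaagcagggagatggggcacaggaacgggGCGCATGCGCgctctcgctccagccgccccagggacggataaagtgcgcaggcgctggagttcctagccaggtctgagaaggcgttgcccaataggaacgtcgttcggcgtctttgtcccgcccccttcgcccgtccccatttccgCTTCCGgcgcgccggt
Cox8a (chr19:7217617-7217866, minus strand): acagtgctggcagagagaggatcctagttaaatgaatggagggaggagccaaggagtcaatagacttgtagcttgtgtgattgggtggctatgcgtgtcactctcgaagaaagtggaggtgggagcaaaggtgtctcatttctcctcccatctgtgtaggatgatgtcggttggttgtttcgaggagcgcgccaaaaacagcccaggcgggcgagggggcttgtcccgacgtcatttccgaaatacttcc
Cox6a1 held the NRF1 palindrome and, on the opposite strand, CGGAAG; Cox8b held CAGCTG; none of the motifs searched was in the windows of Cox7a1 and Cox8a. A window was given for 64 of the 78 members. The palindrome lay in 3 of them (Cox6a1, Atp5g2 and Atp5k; 4.69%) against 0.877% of the windows of 27025 genes, CATGCGC in 9 (14.1% against 3.68%), CGGAAG in 22 (34.4% against 15.3%) and CCGGAAGT in 3 (4.69% against 3.23%). CAGCTG and TATAAA, which were added to the search later, each lay in 6 (9.38%), against 14.7% and 14.3% of all genes. A match of letters is not a binding site, and these shares were not tested.

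Most subunit transcripts of all 5 complexes were lower in WT liver than in WT tibialis. Of the 77 members tested, the isoforms above included, 69 fell and 2 rose (Cox6a1 and Cox8a), where 69.4% of all 13576 probe sets differed (41.1% lower, 28.2% higher). The median log2 difference was -1.26 in complex I, -0.62 in complex II, -0.80 in complex III, -0.56 in complex IV and -0.98 in complex V, against -0.18 over all probe sets. Cox6a2 was at -6.60, and between -6.79 and -6.13 over the alternative settings. Cox7a1 and Cox8b passed the dim filter through their tibialis level alone, so they had to differ and no size is given for them. They are part of the count of 69 and of the complex IV median.

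In complex I all 32 members were lower in liver. Ndufb10, an accessory subunit of the membrane arm, had the largest fall, at -2.14 (SE 0.11, limma adjusted p = 2.67e-08), from 17314, 18423, 20509 and 17828 in WT tibialis to 4164, 4044, 4088 and 4318 in WT liver. Next were Ndufa5, an accessory subunit of the peripheral arm (-2.03), Ndufa12 (-1.72), Ndufc1 (-1.71) and Ndufs1, the large iron-sulphur subunit of the NADH-oxidising arm (-1.65). The other core subunits of that arm were closer to the tibialis level: Ndufv1, which binds NADH, was at -1.06, Ndufv2 at -1.14, Ndufs3 at -1.31, Ndufs8 at -1.46 and Ndufs7 at -1.55. Differences of -1.51 to -1.25 were found for Ndufb5, Ndufs5, Ndufa13, Ndufs4, Ndufb8, Ndufb6, Ndufa10, Ndufa9, Ndufa8 and Ndufv3. The smallest falls were those of Ndufa6 (-0.40, SE 0.11) and Ndufa1 (-0.46, SE 0.10), both accessory subunits.

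All 4 members of complex II and 6 of 8 of complex III fell, by less. Sdhb, the iron-sulphur subunit of complex II, was at -1.28 (SE 0.10), Sdhc at -0.84, Sdhd at -0.40, and Sdha, the flavoprotein that oxidises succinate, at -0.33 (SE 0.12, limma adjusted p = 0.0271). The call of Sdha held in 3 of the 8 fits that left out 1 array (adjusted p from 0.0151 to 0.0615; lost without WT tibialis array 2 or 4 or WT liver array 1, 2 or 3). With a common median it was at -0.14 (adjusted p = 0.312), and its other probe set was at -1.31. In complex III the differences were -1.17 for the core protein Uqcrc1, -1.10 for Uqcr10, -1.04 for the hinge protein Uqcrh, -0.91 for the Rieske iron-sulphur protein Uqcrfs1, -0.69 for the core protein Uqcrc2 and -0.56 for Uqcr11. Uqcrq (-0.17, adjusted p = 0.221) and Uqcrb (0.01, adjusted p = 0.953) did not pass the limma test, and a second probe set of Uqcrb gave -1.43.

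In complex IV the falls of the ubiquitous subunits were -0.94 (Cox5a), -0.88 (Cox6b1), -0.82 (Cox4i1), -0.79 (Cox5b) and -0.32 (Cox6c). Ndufa4 was at -0.29 (SE 0.11, limma adjusted p = 0.0377), a call that held in 3 of 8 fits without 1 array (lost without WT tibialis array 1 or 2 or WT liver array 1, 2 or 3, adjusted p up to 0.0932) and not with a common median (-0.10, adjusted p = 0.523). Cox4i2, the form of subunit 4 known from lung, was at -0.64. Cox7a2l, a supercomplex assembly factor, was at -0.36 (adjusted p = 0.064) and Cox8c at 0.20. Cox6b2 did not pass the limma test (adjusted p = 0.152). It was dim in tibialis and passed the filter through its liver level, where WT array 3 stood apart at 1569, so no size is given for it. In complex V, 16 of 17 members fell. The 3 genes for the c-ring proteolipid, which encode the same mature protein, differed among themselves: Atp5g1 fell by 1.78 (SE 0.11), from 32037 ± 1979 to 9270 ± 657 (SD, n = 4 each), Atp5g2 was at -0.86, and Atp5g3 was at -0.10 (SE 0.11, limma adjusted p = 0.411). Atp5b and Atp5a1, of the catalytic head, were at -0.49 and -0.55, the central stalk subunits Atp5c1, Atp5d and Atp5e at -0.98, -0.73 and -1.72, and Atp5o, of the peripheral stalk, at -1.71. The small membrane subunits Atp5md, Atp5k, Atp5l, Atp5mpl and Atp5j2 were at -1.73, -1.41, -1.31, -1.27 and -0.99.

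WT gastrocnemius at 3 months also lay below WT tibialis. Of 76 members tested, 48 fell and 0 rose by limma, with 2 higher at an unadjusted p under 0.05 (Cox8a and Cox6a1), where 27% of all probe sets differed (14.8% lower, 12.2% higher). The median log2 difference was -0.57 in complex I (24 of 32 fell), -0.50 in complex II (3 of 4), -0.47 in complex III (5 of 8), -0.31 in complex IV (6 of 15) and -0.55 in complex V (10 of 17), against -0.05 over all probe sets. The hepatocyte markers were bright in WT gastrocnemius (median of marker means 14637) and dim in WT tibialis (138), and 13 of 13 were called. Only 6 of the 13 passed the dim filter among the tibialis arrays, so the others were bound to differ and no size is given. Slow fibre markers were higher by a median of 1.86, with 7 of 10 called higher and 1 lower. The part of both in the result was not tested. Without WT gastrocnemius arrays 1, 2 and 4, the highest in liver transcripts, 26 members fell and the medians were -0.47, -0.50, -0.41, -0.22 and -0.49 in the order of the complexes. Setting all arrays to a common median moved the median of all probe sets to -0.19, and 58 members then fell. The shares of all probe sets called in these fits are not given here, so the changed counts are not read as a result about the members.

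Cox7a1 was the complex IV subunit with the largest fall between these muscles. It read 7211, 6078, 9026, 7629 and 10291 on the 5 WT gastrocnemius arrays, below each of the 4 tibialis arrays, a log2 difference of -1.23 (SE 0.16, limma adjusted p = 0.000722). In complex I, the largest falls were those of Ndufb10 (-1.22), Ndufs8 (-1.15), Ndufa13 (-1.04), Ndufa5 (-0.98), Ndufv3 (-0.88), Ndufs5 (-0.83) and Ndufa10 (-0.77). Falls between -0.68 and -0.50 were found for Ndufa8, Ndufa9, Ndufb7, Ndufc2, Ndufb5, Ndufb1, Ndufa12, Ndufs3, Ndufs7, Ndufb2 and Ndufb11. In complexes II and III, Sdhb was at -0.66, Uqcrh at -0.83, Uqcrq at -0.63 and Uqcr10 at -0.57, all called.

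Of complex V, Atp5md, a small subunit of the membrane part, was lowest, at -1.27 (SE 0.21, limma adjusted p = 0.00242). Falls of -0.69 to -0.65 were found for Atp5e, Atp5o, Atp5j2, Atp5g1, Atp5mpl and Atp5d. Cox8a at 0.74 (SE 0.25, adjusted p = 0.0512) and Cox6a1 at 0.41 (adjusted p = 0.0795) did not pass the limma test, and neither did Cox6a2 at -0.31 (adjusted p = 0.213). Over the alternative settings Cox8a ran from 0.28 to 0.83 (adjusted p from 0.0028 to 0.506) and Cox6a1 from 0.17 to 0.71 (adjusted p from 0.0285 to 0.535). Cox8b (-0.59), Cox5b (-0.56), Cox4i1 (-0.56), Cox6b1 (-0.50) and Cox7a2 (-0.50) fell. The calls of Cox6b1 and Cox7a2 held in 1 of 9 fits without 1 array, the one without WT gastrocnemius array 2, with adjusted p up to 0.0777 and 0.0786 in the others. That of Cox8b held in 7 (lost without WT tibialis array 1 or 2, and without the arrays highest in liver transcripts, at adjusted p = 0.107), and that of Cox4i1 in 8 (lost without WT tibialis array 1). Cox4i2, Cox8c, Ndufa4, Atp5g2 and Atp5g3 lay between -0.19 and 0.08.

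Between WT gastrocnemius at 8 and at 3 months, 1 of 76 members was called, where 6.19% of all probe sets differed (3.6% higher). It was Ndufa7, an accessory subunit of complex I, higher by 0.45 at 8 months (SE 0.12, limma adjusted p = 0.0463). Of its 4 other probe sets, 1 was also called, at 0.41, the next ones gave 0.54 and 0.44 and the dimmest gave -0.01. Without the arrays highest in liver transcripts the adjusted p was 0.384. The call was also lost when WT array 1, 2 or 4 at 3 months, or any 1 of the WT arrays at 8 months, was left out; over all 10 such fits the adjusted p ran from 0.0473 to 0.117. In the same comparison hepatocyte markers were lower for 13 of 13 genes, all called. Only 9 of the 13 passed the dim filter among the 8-month arrays, so the others were bound to differ and no size is given. Called higher were 4 of 6 macrophage markers (median 0.59), 3 of 5 of adipocytes (1.11), 3 of 9 of endothelium (0.37) and 1 of 3 of Schwann cells (0.51); their part was not tested.

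**Figure D2:**
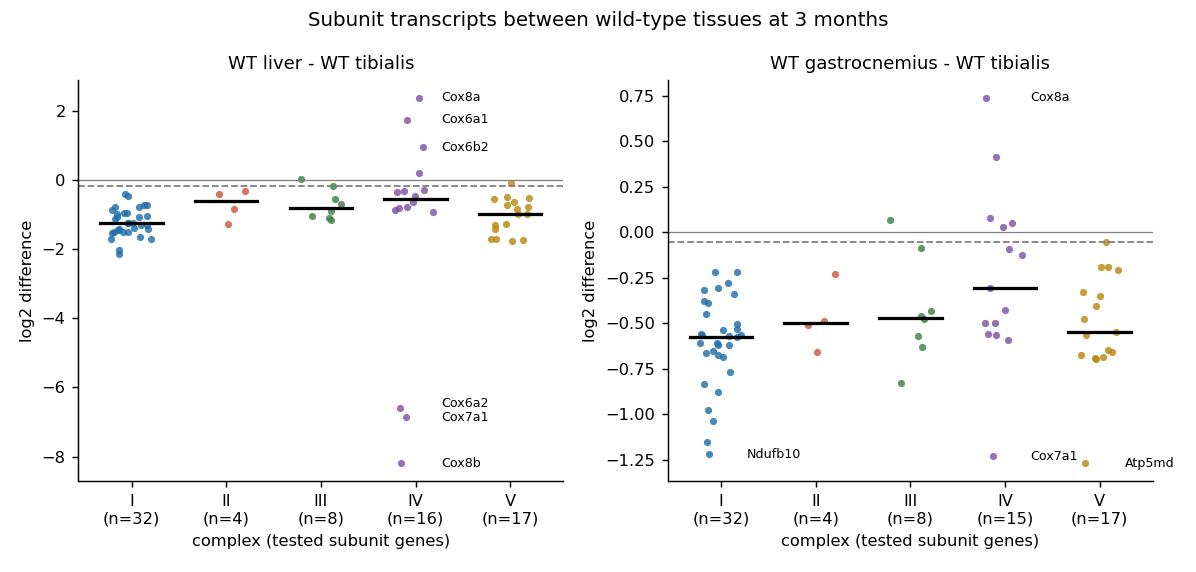
Log2 difference of each tested member by complex, WT liver minus WT tibialis (left) and WT gastrocnemius minus WT tibialis (right) at 3 months; points are genes, black bars complex medians, the dashed line the median of all probe sets. Most members lie below the dashed line in both panels, with complex I lowest, at medians of -1.26 and -0.57, and Cox8a, at 2.36, highest on the left. The lowest points on the left are the muscle isoforms of complex IV, and the heights of Cox7a1 and Cox8b, dim in liver, depend on the added 50.

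The mean level of a complex on each array showed the same order of tissues, and small differences between mutant and WT arrays. The mean log2 level over the 32 complex I members was 14.09 ± 0.07 in WT and 14.07 ± 0.04 in MGSKO tibialis (SD, n = 4 each), 13.49 ± 0.14 (n = 5) and 13.70 ± 0.12 (n = 3) in WT and MGSKO gastrocnemius, 13.63 ± 0.07 and 13.59 ± 0.09 (n = 5 each) in WT and GSL30 gastrocnemius, and 12.86 ± 0.04 and 12.86 ± 0.13 (n = 4 each) in WT and MGSKO liver. Mutant and WT arrays overlapped for complex I in all 4 comparisons. The complex II mean did not overlap between 8-month groups, running from 13.73 to 13.85 in WT and from 13.64 to 13.71 in GSL30. The complex IV mean, over all 17 members, did not overlap in tibialis, from 13.10 to 13.16 in WT and from 13.18 to 13.30 in MGSKO. The median fitted difference there, over the 15 members tested, was 0.04, and -0.06 with arrays set to a common median. The array means were not computed with a common median. These means have no test, since members are not replicates.

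**Figure D3:**
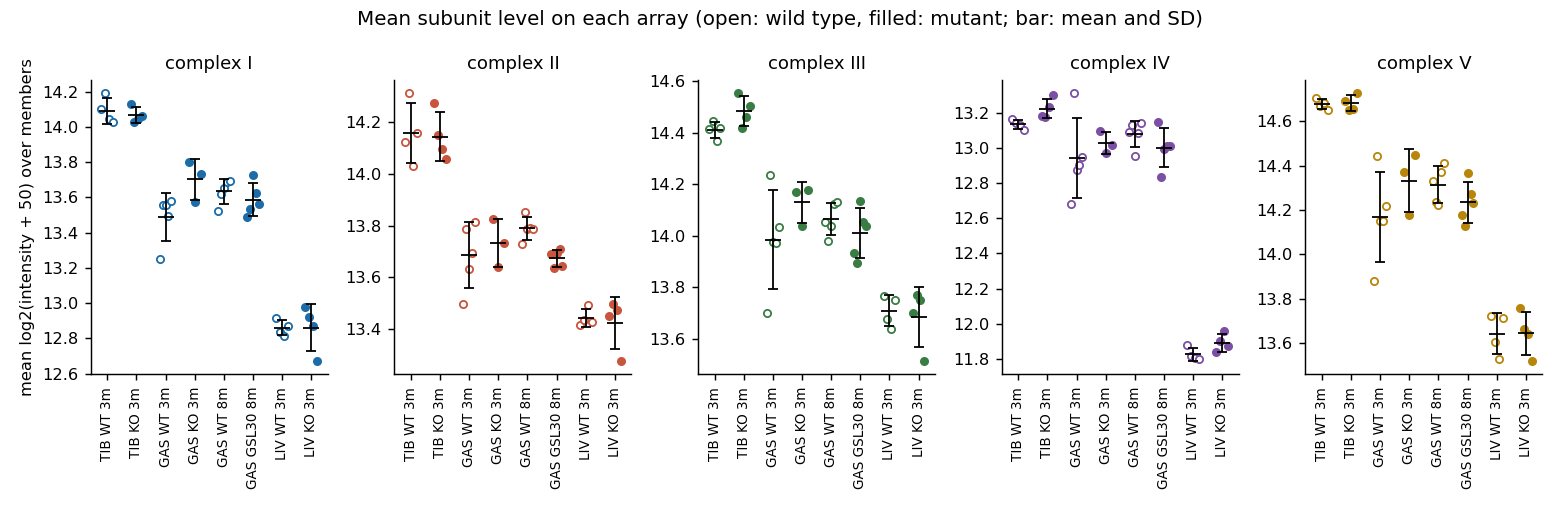
Mean log2(intensity + 50) over the members of each complex (vertical axis, own range in each panel) on every array by group, with TIB anterior tibialis, GAS medial gastrocnemius, LIV liver, KO MGSKO, 3m and 8m the age in months, open points WT, filled points mutant and bars the mean with SD. The tibialis means are highest and the liver means lowest in every panel, and mutant means lie close to their WT mean, with WT gastrocnemius array 1 at 3 months lowest of its group for complex I, at 13.25.

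In MGSKO tibialis no member passed the test: limma called 0 of 76 members, where it called 1.4% of all probe sets. At an unadjusted p under 0.05 there were 2 members, Cox8a higher and Ndufa13 lower, where 15% of all probe sets were under it. The median log2 difference was -0.02 in complex I (11 of 32 above 0), 0.00 in complex II (2 of 4), 0.08 in complex III (7 of 8), 0.04 in complex IV (11 of 15) and 0.01 in complex V (10 of 17), against 0.04 over all probe sets, of which 56.7% were above 0. The median SE of a member was 0.10.

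The groups did not overlap for 6 members in tibialis (7.89% of 76), where 10.1% of all probe sets did not overlap. Cox8a, the non-muscle form of subunit 8, read 5456, 4699, 4784 and 5460 in MGSKO, all above the WT values of 4177, 4447, 3950 and 2421, a log2 difference of 0.47 (SE 0.19, limma adjusted p = 0.277); its next brightest probe set gave 0.49 (adjusted p = 0.0773). Cox6a1, the non-muscle form of subunit 6a, read 10073, 10907, 10594 and 10561 against at most 9972 in WT, a difference of 0.23 (SE 0.12, adjusted p = 0.41). Ndufs1 was also above, with 13707 to 15592 against 10898 to 13683 and a difference of 0.23 (SE 0.11, adjusted p = 0.364). Ndufa13, a complex I subunit also known as GRIM-19, read 27057, 26858, 24852 and 26956 in MGSKO and 33952, 30986, 33315 and 27268 in WT, a difference of -0.24 (SE 0.11, adjusted p = 0.332). Ndufb2 (-0.18) and Atp5e (-0.16) lay below their WT arrays too. The extremes of the other complexes were Sdha (0.16) and Sdhc (-0.22), Uqcrc2 (0.21) and Uqcr11 (-0.09), Atp5g1 (0.13) and Atp5md (-0.16), and Cox6a2 was lowest of complex IV at -0.17 (adjusted p = 0.498). Endothelial markers were above WT for 9 of 9 genes with a median of 0.45 and 0 called. Slow fibre markers were above WT for 5 of 10 genes and below it for 5, with a median of 0.04. They ran from -0.64 (Tnnt1) to 2.29 (Myl3, limma adjusted p = 0.00143), the 1 gene called. The part of both lists was not tested.

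In MGSKO gastrocnemius the fitted differences of complex I were all above 0, but none passed the test. Limma called 0 of 76 members, where it called 0.147% of all probe sets; at an unadjusted p under 0.05 there were 7 members, all higher, where 6.96% of all probe sets were under it and higher. The median was 0.20 in complex I (32 of 32 above 0), 0.03 in complex II (2 of 4), 0.15 in complex III (7 of 8), 0.11 in complex IV (11 of 15) and 0.13 in complex V (17 of 17), against 0.05 over all probe sets, of which 56.5% were above 0. The median SE of a member was 0.16. In 1 fit of all 34 arrays, which shares the spread of all groups, Cox7a1 was called (adjusted p = 0.0173); over all its alternatives it ran from 0.29 to 0.70, with adjusted p from 0.0173 to 0.9997. With 1 array left out, the medians ran from 0.14 to 0.28 in complex I, -0.0030 to 0.066 in II, 0.088 to 0.24 in III, 0.0030 to 0.21 in IV and 0.059 to 0.22 in V, the lowest of I, III, IV and V without WT array 1.

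The groups did not overlap for 8 members, all higher and all of complex I, which is 10.5% of the members, where 7.26% of all probe sets were higher without overlap. They were Ndufa5, Ndufs1, Ndufa9, Ndufa13, Ndufa1, Ndufv3, Ndufs7 and Ndufb11. Ndufa5 read 11721, 8883 and 9266 in MGSKO and 6397, 8424, 7787, 6822 and 8361 in WT, a log2 difference of 0.39 (SE 0.16, limma adjusted p = 0.398). Ndufa9, which binds a nucleotide cofactor at the joint of the arms, read 12214, 10570 and 12246 against 8118 to 10392, a difference of 0.34 (SE 0.14, adjusted p = 0.407). Ndufa13 read 21042, 17703 and 20221 against 12112 to 17109, a difference of 0.36 (SE 0.15, adjusted p = 0.411), where its tibialis value was below 0. Ndufs1 read 11387, 10201 and 9755 against 6966 to 9512, a difference of 0.35 (SE 0.14, adjusted p = 0.406). For each of these genes the lowest MGSKO array lay above the highest WT array, in no case by more than the spread of the WT arrays.

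Outside complex I, Cox7a1 had the largest value. It read 12049, 10170 and 13718 in MGSKO and 7211, 6078, 9026, 7629 and 10291 in WT, with 1 MGSKO array below the highest WT array, a log2 difference of 0.58 (SE 0.19, limma adjusted p = 0.336). Atp5g1 read 27167, 22758 and 29433 against 15892 to 24421, a difference of 0.39 (SE 0.17, adjusted p = 0.422). Ndufb6, at 0.42, was highest of complex I and Ndufb2, at 0.06, was lowest. The other extremes were Sdha (0.19) and Sdhb (-0.07), Uqcr10 (0.28) and Uqcrb (-0.05), Cox8c (-0.08), and Atp5md (0.40) and Atp5g3 (0.01).

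Markers of other cells moved beside these values. Hepatocyte markers were lower in MGSKO for 13 of 13 genes, with a median of -1.40 and 0 called; their mean log2 level ran from 11.24 to 15.24 in WT and from 11.19 to 13.38 in MGSKO. Slow fibre markers were higher for 9 of 10 genes, with a median of 0.84 and 0 called, and their mean level did not overlap, at 11.88 to 12.58 in WT and 12.85 to 13.19 in MGSKO. Endothelial markers were higher for 8 of 9 genes (median 0.34, 0 called) and Schwann cell markers for 3 of 3 (median 0.54, 0 called). Their mean levels did not overlap either, at 10.35 to 10.77 in WT against 10.91 to 11.12 in MGSKO for endothelium, and 10.01 to 10.34 against 10.36 to 10.67 for Schwann cells; the part of these last cells was not tested. Without WT arrays 1, 2 and 4 and MGSKO array 1, which leaves 2 arrays against 2, the complex I median was 0.08 with 27 of 32 above 0, and that of complex V 0.11 with 16 of 17. With the slow fibre level of each array as a covariate, the complex I median was 0.13 with 28 of 32 above 0, that of complex IV -0.01 with 6 of 15, and that of complex V -0.00 with 8 of 17. The slow fibre levels of the groups do not overlap, so covariate and genotype lie close together and that fit cannot separate them. With the hepatocyte level as a covariate, complex I was at 0.18 with 32 of 32.

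In MGSKO liver, too, none of the members passed the test. Limma called 0 of 75 members, where it called 0.00737% of all probe sets, and at an unadjusted p under 0.05 there was 1 member, where 8.33% of all probe sets were under it. The median was -0.01 in complex I (13 of 32 above 0), -0.04 in complex II (1 of 4), -0.02 in complex III (3 of 8), 0.06 in complex IV (9 of 14) and 0.03 in complex V (10 of 17), against 0.02 over all probe sets, with a median SE of 0.12 for a member. The groups overlapped for every member tested, where 5.17% of all probe sets did not overlap. The member under the unadjusted threshold was Cox6b2, at 711, 928, 1096 and 1079 in MGSKO and 201, 176, 1569 and 253 in WT, a log2 difference of 1.28 (SE 0.53, limma adjusted p = 0.573). WT array 3 lay above every MGSKO array, and without it the groups did not overlap and the difference was 1.94 (limma adjusted p = 0.0107). Over all alternatives the difference ran from 0.95 to 1.94, with limma adjusted p from 0.0107 to 0.846. The extremes of the other complexes were Ndufs5 (0.18) and Ndufb7 (-0.20), Sdhb (0.09) and Sdhc (-0.08), Uqcr11 (0.07) and Uqcrc2 (-0.16), and Atp5c1 (0.11) and Atp5k (-0.15); Cox5b was lowest of complex IV at -0.17.

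In GSL30 gastrocnemius, 3 complex IV isoform genes had the lowest p-values of the members, all below WT, and none passed the test. Limma called 0 of 76 members, where it called 4.31% of all probe sets; at an unadjusted p under 0.05 there were 8 lower members and 1 higher, where 11% and 10.4% of all probe sets were. The median was -0.02 in complex I (14 of 32 above 0), -0.14 in complex II (1 of 4), -0.03 in complex III (2 of 8), -0.01 in complex IV (7 of 15) and -0.09 in complex V (6 of 17), against 0.03 over all probe sets, of which 53.5% were above 0. The median SE of a member was 0.12.

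Cox7a1 read 6618, 7229, 8136, 6997 and 7228 in GSL30, all below the WT values of 8967, 8729, 9758, 9136 and 11714, a log2 difference of -0.41 (SE 0.12, limma adjusted p = 0.0656). With all arrays kept, it passed the threshold in 5 alternative settings, among them the fit of all 34 arrays (adjusted p = 0.0257). Its adjusted p was 0.945 with slow fibre markers as a covariate, a fit in which no probe set on the array was called. Over all alternatives, that fit included, the difference of Cox7a1 stayed between -0.48 and -0.34. Cox6a1 read 7583, 8789, 9383, 11769 and 10326 against 12614, 12793, 13618, 10812 and 18564, with 1 GSL30 array above the lowest WT array, a difference of -0.51 (SE 0.16, adjusted p = 0.0938); its second probe set fell by 0.54 (adjusted p = 0.042). Cox8a read 6204, 5022, 3911, 6043 and 4335 against 6600, 8383, 6752, 5412 and 7851, a difference of -0.46 (SE 0.16, adjusted p = 0.128), and its next brightest probe set gave -0.61 (adjusted p = 0.0888). The muscle forms Cox6a2 and Cox8b were each at 0.15, with adjusted p = 0.457 and 0.596. Among these genes, the fitted differences below WT were thus those of the non-muscle forms of subunits 6a and 8 and the muscle form of 7a, none of them called in the main fit.

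The groups did not overlap for 4 members (5.26%), all lower, where 3.59% of all probe sets were lower without overlap: Cox7a1, Ndufc1, Ndufc2 and Sdha. Sdha read 14145, 13308, 14316, 13984 and 14420 in GSL30 and 15727, 16227, 15319, 16941 and 17307 in WT, a difference of -0.21 (SE 0.10, limma adjusted p = 0.219). Ndufc1 and Ndufc2, small subunits of the membrane arm of complex I, were at -0.24 and -0.27. Atp5md, the lowest member at -0.62 (SE 0.25, adjusted p = 0.178), read 4949, 4183, 6089, 6813 and 4455 against 9886, 4415, 6311, 11359 and 10816. WT arrays 2 and 3 lay within the GSL30 range, and without array 2 it was called (-0.84, adjusted p = 0.0487). Over all alternatives Atp5md ran from -1.29 to -0.087, with limma adjusted p from 0.0487 to 0.993. Ndufa4 was at -0.23 and Atp5g2 at 0.23, the latter being the 1 member higher at an unadjusted p under 0.05. The highest of the other complexes were Ndufv2 (0.08), Sdhb (0.03), Uqcrb (0.13) and Cox7a2l (0.26), and Uqcr11 was lowest of complex III at -0.20.

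Slow fibre markers were below WT in the same arrays for 9 of 10 genes (median -0.85, 7 called), with mean log2 levels of 12.41 to 12.66 in WT and 11.53 to 12.09 in GSL30. Endothelial markers were below WT for 9 of 9 genes (median -0.57, 4 called) and hepatocyte markers for 9 of the 9 tested (median -1.45, 3 called). Adipocyte markers were below WT for 5 of 5 genes (median -0.63, 1 called) and Schwann cell markers for 3 of 3 (median -0.55, 0 called). With the slow fibre level as a covariate the medians of complexes I to V were 0.06, -0.07, 0.08, -0.15 and -0.00, and Cox6a1 was at 0.06; the covariate and the group lie close together here, since the marker levels do not overlap, and no probe set on the array was called in that fit. The part of these cell types in the subunit values was not tested further.

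**Figure D4:**
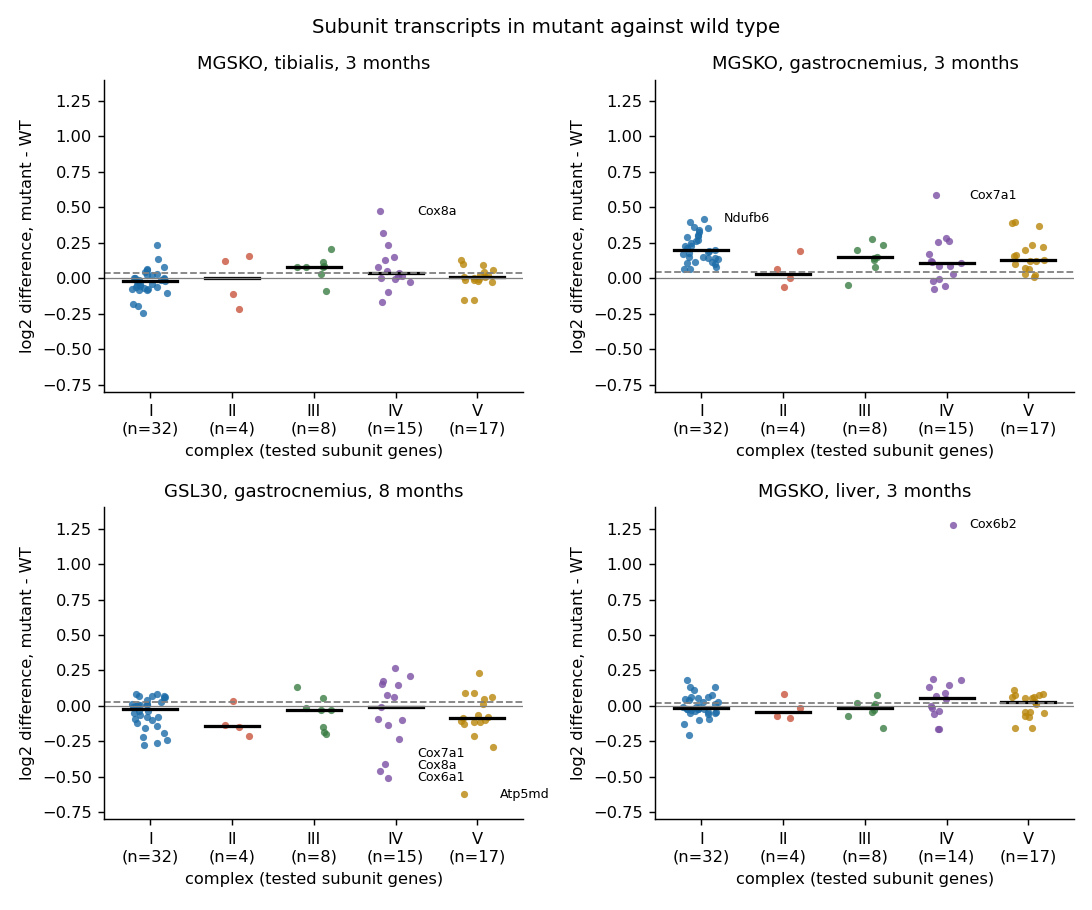
Log2 difference of each tested member, mutant minus WT, by complex in the 4 mutant comparisons; points are genes, black bars complex medians, the dashed line the median of all probe sets. Members of MGSKO tibialis and liver gather around 0 apart from Cox8a (0.47) and Cox6b2 (1.28), all 32 of complex I lie above 0 in MGSKO gastrocnemius, and Cox7a1, Cox8a, Cox6a1 and Atp5md lie lowest in GSL30.

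The effects of the 2 genotypes in gastrocnemius were set against each other in 1 fit of the 18 arrays. Limma called 1 of 76 members, where it called 2.3% of all probe sets (1.65% lower). It was Cox7a1, with a difference of effects, GSL30 minus MGSKO, of -0.99 (SE 0.21, adjusted p = 0.0162), made up of -0.41 at 8 months and 0.58 at 3 months. Age, line and run differ between the sides of this difference and cannot be told apart. The call was lost without MGSKO array 1 (adjusted p = 0.0507), without MGSKO array 3 (adjusted p = 0.0645) and without the arrays highest in liver transcripts, where the difference was -0.65 (adjusted p = 0.256). In this contrast slow fibre markers were lower for 10 of 10 genes (8 called, median -1.70), endothelial markers for 9 of 9 (5 called, median -0.85), Schwann cell markers for 3 of 3 (2 called, median -1.08) and adipocyte markers for 5 of 5 (1 called, median -1.03); their part was not tested. Ndufs1 (-0.61, SE 0.18, adjusted p = 0.0861) and Ndufa13 (-0.58, SE 0.18, adjusted p = 0.099) came next.

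For the MGSKO effect in gastrocnemius minus that in tibialis, limma called 0 of 76 members, where it called 0.0147% of all probe sets, and 5 members were under an unadjusted p of 0.05, where 10% of all probe sets were. The lowest p was that of Ndufa13, at 0.61 (SE 0.18, adjusted p = 0.355), from -0.24 in tibialis and 0.36 in gastrocnemius; Ndufa5 and Ndufv3 were each at 0.40. For the liver effect minus the mean of both muscles, limma called 0 of 77 members, where it called 0.685% of all probe sets, and 5 members were under an unadjusted p of 0.05, where 10.4% of all probe sets were. They were led by Cox6b2 at 1.60 (SE 0.54, adjusted p = 0.237), Uqcrc2 at -0.38 and Cox8b. Cox8b averaged 98 in WT and 35.8 in MGSKO liver and passed the dim filter through its muscle level, so no size is given for it. Cox6b2 was dim in muscle, with group means of 121 to 243 at 3 months, and passed the filter through its liver level. The 3 tissues share no arrays, so these differences rest on separate groups.

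Other genes of the pathway were read from 6 lists: ubiquinone and cytochrome c carriers (9 of 10 genes measured), ubiquinone synthesis (8 of 13), assembly factors (27 of 37), nucleotide, phosphate and proton carriers (12 of 15), regulators of mitochondrial gene expression (17 of 20), and the mitochondrial ribosome (37 of 38). In the MGSKO comparisons limma called 0 of them in tibialis, gastrocnemius or liver, with at most 2 genes of any list under an unadjusted p of 0.05. Of all probe sets it called 1.4%, 0.147% and 0.00737% in these tissues, and 15%, 11.4% and 8.33% were under the unadjusted threshold. The list medians ran from -0.04 to 0.05 in tibialis, from -0.07 (carriers of electrons to ubiquinone and cytochrome c) to 0.22 (ubiquinone synthesis, 7 of 8 above 0) in gastrocnemius, and from -0.06 to 0.04 in liver. In GSL30, Mrps12, a protein of the small mitochondrial ribosomal subunit, rose by 0.52 (SE 0.11, limma adjusted p = 0.0254). It was 1 of 37 genes of its list, a smaller share than the 4.31% called of all probe sets. Limma called 0 genes of the other 5 lists. At most 4 genes of any of them were under an unadjusted p of 0.05, where 21.4% of all probe sets were. Ppargc1a, the coactivator PGC-1alpha, was at 0.30, 0.29, 0.12 and -0.21 in MGSKO tibialis, gastrocnemius, liver and GSL30 gastrocnemius, Esrra, its nuclear receptor partner, at 0.02, -0.16, 0.34 and 0.45, and Nrf1 at -0.04, -0.06, 0.25 and 0.27. Gabpa was at -0.43 in GSL30 (adjusted p = 0.0981), and Tfam, which packages mitochondrial DNA, stayed between -0.19 and 0.06.

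Between WT tissues, Ppargc1a was at -1.87 and Esrra at -2.13 in liver, and at -0.74 and -0.89 in gastrocnemius, all called. The cytochromes Cyc1 and Cycs were at -0.74 and -1.05 in liver and at -0.56 and -0.52 in gastrocnemius, all called. Slc25a4, the muscle form of the ADP/ATP carrier, fell by 7.21 in liver, while Slc25a5, its partner in other tissues, rose by 2.83, and Slc25a4 was at -0.02 in gastrocnemius (adjusted p = 0.965). In liver against tibialis, 15 of 27 assembly factors fell and 5 rose, and 21 of 37 mitochondrial ribosomal proteins fell and 2 rose, where 41.1% of all probe sets were lower and 28.2% higher. Gabpa (-0.18) and Tfam (-0.14) did not pass the test in liver.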

How the data were processed

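Total RNA of each tissue (about 5 µg for muscle, 10 µg for liver) was hybridised to Affymetrix arrays, per the labels. The authors deposited 1 table of intensity values; the sources used here do not name the software behind it, and from the values every array has a 2% trimmed mean of about 1000. Values were used as deposited, as log2(intensity + 50). Symbols came from the platform annotation.

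Fits used limma 3.58.1 in R 4.3.3 (lmFit, eBayes), on the groups compared, after 64 control probe sets and the dimmest 40% of probe sets by mean level over the arrays compared were left out, with Benjamini-Hochberg adjustment over the 13576 left. The fits were tried on simulated arrays. The changes put in were larger than nearly all member differences of the mutant comparisons, so that trial does not show what was detectable there. The number of arrays limits the precision. A gene was described by its brightest probe set; 18 of the 78 end in _x_at or _s_at and may also read related transcripts.

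Members, gene lists and tests were chosen with earlier results of these data known. Named were members called or without overlap, the highest and lowest of each complex, isoform pairs, called genes of the pathway lists in the mutant comparisons with 8 fixed genes (Ppargc1a, Nrf1, Gabpa, Tfam, Esrra, Cyc1, Cycs, Slc25a4), and Gys1; Slc25a5 and members named only by an unadjusted p were added after their values were seen. Alternatives were another probe set, arrays set to a common median or to common quantiles, pseudocounts of 1 and 200, a stricter dim filter (60%) and none, 1 fit of all 34 arrays, trended robust eBayes, array weights, marker covariates, and leaving out arrays. Identity between isoform proteins was not analysed here.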

Additional observations from a re-analysis of the deposited data

Results flagged for a closer look

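Of 147 sets of 4 or 5 arrays looked at for a single array apart from the rest, 9 had one, and chance gives about 1 in 20. WT gastrocnemius array 1 at 3 months was lowest of its group in the mean of complex I, at 13.25. WT gastrocnemius array 5 at 8 months was apart in Cox6a2, at 40757. WT gastrocnemius array 2 at 3 months was lowest in Atp5md, at 5894, and is the array apart in fast fibre markers. GSL30 array 3 was apart in Uqcrc2, at 14615. In liver, WT array 3 was apart in Cox6b2, at 1569, and WT array 4 in Cox8a, at 20489, and in Ndufa13, at 12834. In MGSKO tibialis, array 3 was apart in Ndufa13, at 24852, and array 2 in Ndufb10, at 17468.

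The effects of the 2 genotypes on Cox7a1 in gastrocnemius differed by -0.99 on the log2 scale in the test of the difference itself (limma adjusted p = 0.0162). It passed the threshold in neither genotype against its own WT group. Over the alternatives the difference ran from -1.11 to -0.65 and its adjusted p from 0.000958 to 0.256.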

How the results depend on the processing

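No paired analysis was possible because replicate numbers here only follow the order of deposition and pair no arrays. Of the complex medians under other settings, 572 moved by less than the spread between replicates and 48 by more; of the counts of called members, 209 stayed within 1.5 times, 15 went up and 16 down. The cause of the moves was not tested, and the counts under other settings are given without the share of all probe sets called. Setting arrays to a common median moved the median of all probe sets from 0.04 to -0.05 in MGSKO tibialis, from -0.18 to 0.00 in liver against tibialis, from -0.05 to -0.19 in gastrocnemius against tibialis, and in the differences of effects from 0.02 to 0.17 (gastrocnemius minus tibialis) and from -0.03 to -0.13 (GSL30 minus MGSKO).

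In MGSKO tibialis the medians became -0.12 (complex I), -0.021 (III), -0.060 (IV) and -0.092 (V) with a common median, 0.15 (III) and 0.057 (V) with common quantiles, and 0.055 (V) with the dimmest probe set of each gene. In MGSKO gastrocnemius complex II was at -0.12 with the slow fibre covariate, and 1 member was called in the fit of all 34 arrays. In MGSKO liver complex II was at 0.080 with the dimmest probe set, and complex IV at 0.0016 with a common median and between -0.0046 and 0.11 with 1 array left out, where 0 to 1 members were called. In GSL30, 1 member was called with the dimmest probe set, common quantiles, a pseudocount of 200, the filter at 60% or trended robust eBayes, 2 in the fit of all 34 arrays, and 0 to 1 with 1 array left out. Its complex II median was -0.081 with the dimmest probe set, -0.19 with a common median and -0.068 with the slow fibre covariate; complex III was at -0.14 and 0.082 with the hepatocyte and slow fibre covariates, complex IV at -0.15 and Cox6a1 at 0.063 with the latter.

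For liver against tibialis, the medians of complexes I to V were -1.37, -0.73, -0.97, -0.63 and -1.16 with common quantiles and -1.07, -0.43, -0.61, -0.38 and -0.79 with a common median, and complexes II, III and IV were at -0.93, -1.10 and -0.65 with the dimmest probe set. Complex IV, whose members differ most, was at -0.60 and -0.48 with pseudocounts of 1 and 200, -0.48 with no filter, -0.64 with the filter at 60% and -0.64 in the fit of all 34 arrays. With 1 array left out, complex II ran from -0.66 to -0.53, III from -0.86 to -0.76 and IV from -0.63 to -0.51. Atp5g3 turned to 0.089 with a common median, and Uqcrb to -1.43 with its dimmest probe set, -0.22 with common quantiles and between -0.059 and 0.054 with 1 array left out.

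For gastrocnemius against tibialis, 26 members were called without the arrays high in liver transcripts. Complexes I, II and III were at -0.72, -0.64 and -0.62 with a common median, complex II at -0.71 with the dimmest probe set, and complex IV at -0.13 with no filter. Members near 0 changed sign: Cox4i2 was at -0.069 with common quantiles, -0.11 with a common median and between -0.085 and 0.15 with 1 array left out. Cox8c was at -0.062 with a common median, -0.054 with array weights, -0.092 without the arrays high in liver transcripts and between -0.068 and 0.14 with 1 array left out. Ndufa4 was at 0.0067 with common quantiles and between -0.19 and 0.0075 with 1 array left out, and Atp5g3 between -0.28 and 0.059. Uqcrb was at -0.85 with its dimmest probe set, -0.080 with a common median, -0.20 with array weights, -0.17 without the arrays high in liver transcripts and between -0.24 and 0.21 with 1 array left out.

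For 8 against 3 months, limma called 0 members with common quantiles, a common median, a pseudocount of 1, no filter or without the arrays high in liver transcripts, 2 with array weights, 8 in the fit of all 34 arrays and 0 to 1 with 1 array left out; Ndufa7 was at -0.0090 with its dimmest probe set. For GSL30 minus MGSKO it called 2 with common quantiles or array weights, 4 in the fit of all 34 arrays, 0 without the arrays high in liver transcripts and 0 to 1 with 1 array left out. For liver minus the muscles it called 0 to 1 with 1 array left out; the call was that of Cox6b2 without WT liver array 3. Leaving out the arrays high in liver transcripts was chosen after seeing the data.

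The groups hold 3 to 5 arrays, which limits the precision: the median SE of a member was 0.10 to 0.16 in the mutant comparisons. Far larger differences were not called either, such as 0.58 for Cox7a1 in MGSKO gastrocnemius and -0.62 for Atp5md in GSL30. The lack of called members therefore does not exclude changes of that size. Genes read by several probe sets had fitted differences of both signs for 15 of 41 in MGSKO tibialis, 7 of 40 in MGSKO gastrocnemius, 21 of 39 in MGSKO liver and 17 of 41 in GSL30.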
